A study of Arabidopsis thaliana with 22 samples.

Results

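The loci described here are the 90 loci of Arabidopsis thaliana that the value table holds with 4 or more transcript models, out of 27143 loci in all. Each identifier joins a locus and a number, and the number was taken to count transcript models, although no label says so. The 90 loci hold 384 of the 31524 models. Of them, 73 have 4 models, 12 have 5, 4 have 6 and 1 has 8. For comparison, 502 loci have 3 models, 3083 have 2 and 23468 have 1. The choice used the number of models and no measured value, but it was made with earlier results of these data known.

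Gene expression was measured on 22 one-colour NimbleGen arrays, designed on the TAIR10 genome, in root cells sorted by fluorescence. Each cell came from a plant that carried a GFP reporter of either epidermis or cortex, the outermost root layer and the layer just inside it. The 8 groups were atscl26 and Col0, each in epidermis and cortex, and each treated for 2 h with KNO3 or KCl (5 mM in the source names). Seedlings of both genotypes and both treatments had first been raised on 0.1 mM KNO3 plus 30 mM sucrose, for 9 days by the protocol and to an age of 12 days by the source names. There were 3 arrays a group, but only 2 in the epidermis KCl group of atscl26 and in the cortex KNO3 group of Col0. The protocol describes the control as plates kept at 0.1 mM KNO3, and the control is called KCl here, as in the titles. The atscl26 line is mutated in SCL26, which encodes a GRAS transcription factor. The authors' group averages call it atscl26-2. The kind of mutation, the number of lines behind it and the number of plants per array are not stated in the labels. Making protoplasts and amplifying RNA were common to all 8 groups.

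One plant gene can give several messenger RNAs, through alternative splicing, alternative starts or alternative ends. The resulting transcripts can encode different proteins, can differ only outside the coding region, or can be marked for destruction by nonsense-mediated decay. SR proteins bind to exons and U2AF binds to the end of the intron, and both help to choose splice sites. An array reports each annotated model by its own set of probes. Models of 1 locus often share most of their sequence, so their probes can report the same RNA. Probe positions were not used here. Probes also differ in how brightly they report, so an offset between models of 1 locus is no measure of their relative abundance. What can be compared is whether the models keep the same offset from array to array and from group to group.

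Before the results, some facts on the arrays bear on all of them. The median log2 level of an array was 8.78 at the lowest and 9.04 at the highest. SCL26 did not separate the genotypes, with a median level of 8.30 in the 11 atscl26 arrays (range 7.66 to 9.11) and of 7.94 in the 11 Col0 arrays (range 7.0 to 11.26). On 4 arrays the median correlation with the other arrays was lower than on the rest (0.852 to 0.921). In cortex under KNO3 these were replicate 1 of atscl26 (0.772) and replicate 1 of Col0 (0.681). In Col0 epidermis they were replicate 3 under KNO3 (0.80) and replicate 2 under KCl (0.562). A marker score was taken as the mean of 5 epidermis markers minus that of 3 cortex markers, and on 7 arrays it was closer to the cell type not on the label. These were replicates 2 and 3 of atscl26 epidermis KNO3, replicates 1 and 2 of Col0 epidermis KCl, replicates 2 and 3 of atscl26 cortex KNO3 and replicate 3 of atscl26 cortex KCl. The authors' deposited table of group averages matched the groups of the titles for 6 of the 8 groups. The Col0 epidermis KCl average in that table equals the mean of replicates 1 and 3 of that group and replicate 1 of atscl26 epidermis KNO3. The Col0 cortex KNO3 average equals the mean of its 2 arrays and replicate 1 of atscl26 cortex KCl. Which of titles and averages is right cannot be told from the files. Samples were grouped by their titles.

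The mean level of a model over the 22 arrays ran from low to very high across the 90 loci. Most models lay less than 2 below the highest model of their locus. The locus means had a median of 9.81 (range 6.10 to 14.05). The distance between the highest and the lowest model of a locus had a median of 1.20. It was under 0.5 in 13 loci, 1 or more in 52 and 3 or more in 13. In 26 loci, 34 models lay 2 or more below the highest model of the locus. The same distance had a median of 1.03 in the 502 loci with 3 models and of 0.75 in the 3083 with 2, which have fewer models to differ.

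**Figure D1:**
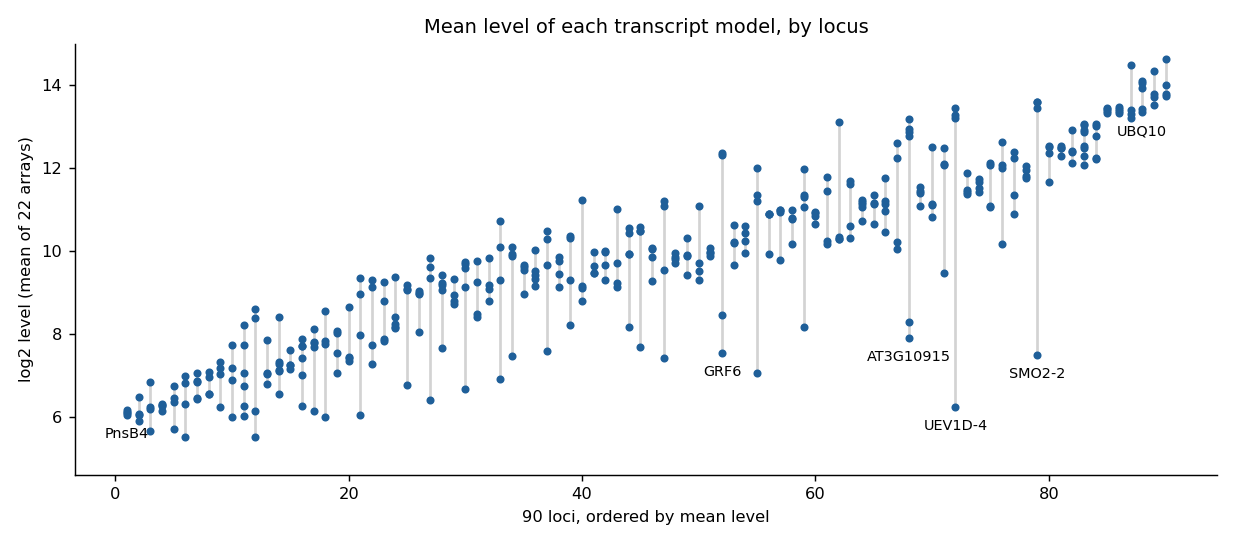
Each point is the mean log2 level of 1 transcript model over the 22 arrays, and a grey line joins the highest and lowest model of each of the 90 loci, ordered along the horizontal axis by mean level. The lines have a median length of 1.20, while single models of UEV1D-4 and SMO2-2 lie 7.22 and 6.11 below the highest model of their locus.

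All models had a mean over 12 in 10 loci. UNE5, named for a defect in fertilisation and encoding a protein disulfide isomerase, was the highest, with model means of 13.75 to 14.64. HOG1, which encodes S-adenosylhomocysteine hydrolase of the methylation cycle, had means of 13.52 to 14.34. UBQ10, a polyubiquitin gene, had means of 13.35 to 14.11 in its 5 models. EIF4A1, an RNA helicase of translation initiation, lay at 13.22 to 14.48, and ATARD2, an acireductone dioxygenase, at 13.32 to 13.45. All models had a mean under 7 in 6 loci. Among these, PnsB4, a subunit of the chloroplast NDH complex, lay at 6.04 to 6.17, RLM3 at 6.15 to 6.31 and MCA2, a calcium-permeable channel, at 5.66 to 6.84. Levels this low leave little room for a decrease to show.

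Models of 1 locus moved together from array to array more than they moved apart. The spread within groups was described by 2 standard deviations per locus. The first is that of the levels, pooled over the models. The second is that of the part specific to single models, which is what remains after the mean of the locus on the same array is taken away. The level SD had a median of 0.893 over the 90 loci and the model-specific SD one of 0.393 (range 0.0921 to 1.06). The model-specific part made up a median of 25.1% of the variance (range 3.06% to 98.2%). It was under 10% in 19 loci and 50% or more in 14. In the 502 loci with 3 models the median share was 32.4%, and in the 3083 with 2 it was 35.8%. Without the 4 arrays of low correlation the level SD of the 90 loci had a median of 0.604, the model-specific SD one of 0.275 and the share one of 26.1%. Those 4 arrays held between 7.01% and 12.45% each of the model-specific squared deviations of all 90 loci, against 1.55% to 7.45% on each other array. The 7.45% is that of replicate 2 of Col0 cortex KNO3. It equals the share of replicate 1, of low correlation, because the 2 arrays of a group lie equally far from their mean.

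**Figure D2:**
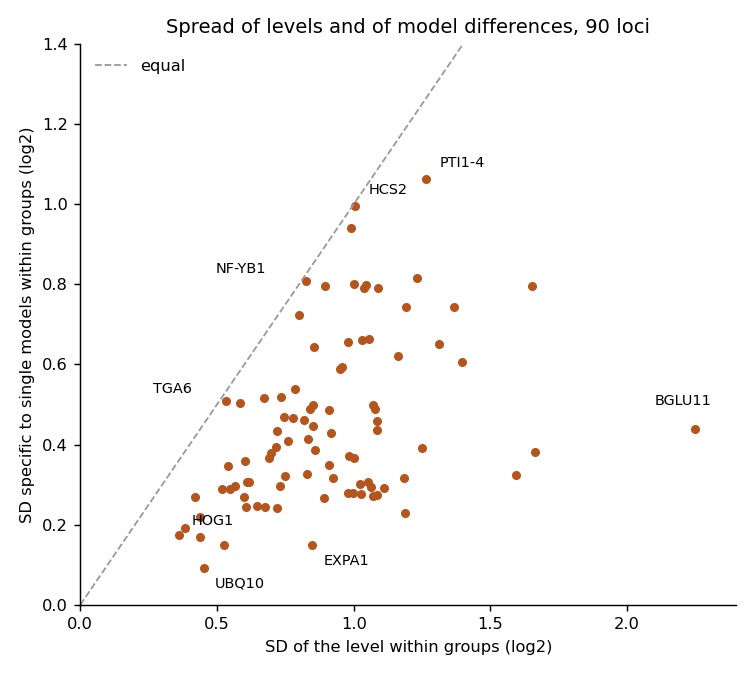
Each point is 1 of the 90 loci, with the SD of its model levels within groups on the horizontal axis and the SD specific to single models on the vertical axis, both in log2 units; the dashed line marks equality. All 90 loci lie below the line, BGLU11 and EXPA1 far below it and HCS2 and NF-YB1 close to it.

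UBQ10 kept its offsets most closely. Its model-specific SD was 0.0921, against a level SD of 0.454. Model 5 had levels of 14.23, 13.74 and 14.59 in atscl26 epidermis KNO3, 13.38 and 13.93 in atscl26 epidermis KCl, 13.35, 14.54 and 13.88 in Col0 epidermis KNO3, and 14.68, 14.60 and 14.24 in Col0 epidermis KCl. Model 2 lay below it on each of these arrays, with 13.54, 13.11 and 13.66, then 12.76 and 13.19, then 12.63, 13.88 and 12.96, then 13.74, 14.02 and 13.54 in the same order. The difference between models 5 and 6 had an SD of 0.101 within groups and ranged from -0.17 to 0.34 over the 22 arrays. HOG1 followed with a model-specific SD of 0.148. EXPA1, an expansin that loosens cell walls, also had 0.148, while its levels had an SD of 0.849, so its models shared nearly all of their movement (3.06% specific). Of all 646 pairs of models of the 90 loci, the closest was models 3 and 4 of RS41, an SR splicing factor, whose difference had an SD of 0.0822. Pairs had a median SD of 0.474, and 97 pairs in 28 loci exceeded 1.

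The locus with the widest spread of levels was BGLU11, which encodes a beta-glucosidase and has 5 models. Its level SD was 2.25 and its model-specific SD 0.439, a share of 3.81%. Model 5 had levels of 9.11, 12.49 and 13.18 in atscl26 epidermis KNO3, 7.59 and 9.60 in atscl26 epidermis KCl, 8.76, 13.02 and 8.12 in Col0 epidermis KNO3 and 12.80, 10.37 and 12.74 in Col0 epidermis KCl. In cortex it had 13.13, 9.21 and 9.76 in atscl26 KNO3, 13.27, 13.84 and 7.48 in atscl26 KCl, 8.60 and 14.21 in Col0 KNO3 and 13.43, 13.23 and 13.36 in Col0 KCl. In 5 of the 8 groups 1 replicate or more lay under 10 and 1 or more over 12, while atscl26 epidermis KCl lay wholly under 10 and Col0 cortex KCl wholly over 12. The 4 epidermis arrays with a marker score nearer cortex had 10.37 to 13.18 and the 3 cortex arrays with a score nearer epidermis had 7.48 to 9.76. High values of 13.02 and 12.74 also occurred on Col0 epidermis arrays whose score fitted the label. The part of cell type composition in this spread was not tested. In sorted bulk samples, fewer cells of a type and less RNA per cell cannot be told apart.

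In other loci single models kept a level and a course of their own. HCS2, named as a biotin ligase, had a model-specific share of 98.2%, the highest of the 90 loci. Its models 1, 2 and 3 had means of 10.48, 10.48 and 10.59, and model 4 had 7.68. Model 4 had levels of 6.06, 8.53 and 6.93 in atscl26 epidermis KNO3, 7.01 and 9.53 in atscl26 epidermis KCl, 9.91, 6.30 and 7.14 in Col0 epidermis KNO3 and 6.75, 6.84 and 10.86 in Col0 epidermis KCl. It thus varied by over 2 units within each epidermis group. In cortex it had 7.88, 10.03 and 7.88 in atscl26 KNO3, 6.84, 7.36 and 7.57 in atscl26 KCl, 7.77 and 6.58 in Col0 KNO3 and 7.44, 6.97 and 6.87 in Col0 KCl. Models 2 and 3 of HCS2 kept together, with an SD of their difference of 0.228. Model 1 broke away from them on few arrays, to 6.26 on Col0 cortex KNO3 replicate 1 (10.86 on replicate 2) and to 8.45 on Col0 cortex KCl replicate 1 (11.70 on both other replicates).

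GRF6, which encodes a 14-3-3 protein that binds phosphorylated partners, split into 2 pairs. Its models 1 and 2 had means of 12.37 and 12.32 and an SD of their difference of 0.147. Models 3 and 4 had means of 8.46 and 7.53. Model 3 had 8.56, 5.79 and 6.11 in Col0 epidermis KCl, against 11.82, 9.03 and 8.93 in Col0 cortex KCl. The epidermis arrays were all lower than the cortex arrays, with a difference of -3.10 ± 0.95 (SE; limma adjusted p = 0.845). Replicates 1 and 2 of Col0 epidermis KCl have a marker score nearer cortex, and replicate 2 has the lowest correlation of all arrays. The difference was -2.59 ± 1.18 without the arrays of low correlation and -3.81 ± 1.22 without those whose markers go against their label. The latter rests on replicate 3 alone in Col0 epidermis KCl, and its SE takes the spread from the other groups. With array weights it was called (-3.15 ± 0.83, adjusted p = 0.0237), in a comparison where 11.1% of all models and 11.5% of the 384 were then called. The same model had 10.64 and 8.74 in atscl26 epidermis KCl and 6.92, 7.63 and 9.35 in atscl26 cortex KCl, where the groups overlapped.

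**Figure D3:**
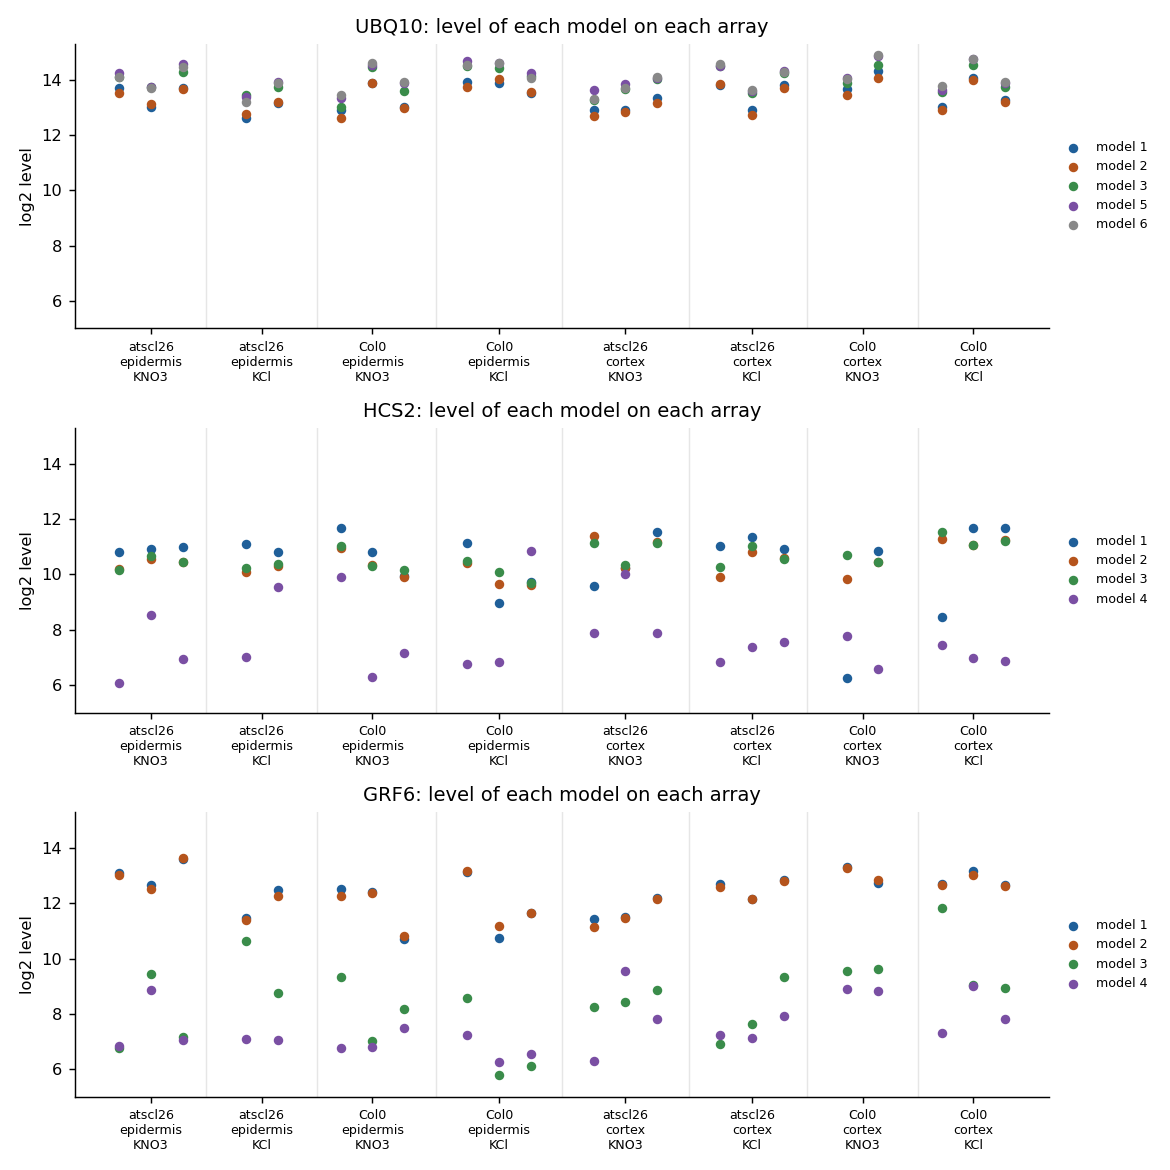
Log2 level of each model of UBQ10, HCS2 and GRF6 on each of the 22 arrays, with arrays side by side within each of the 8 groups and a colour per model. The 5 models of UBQ10 move together (model-specific SD 0.0921), while model 4 of HCS2 and models 3 and 4 of GRF6 lie apart from the other models and scatter within groups.

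Further loci held 1 model far below the others. UEV1D-4, a ubiquitin-conjugating enzyme variant, had means of 13.21 to 13.45 in models 1 to 3 and 6.23 in model 4. SMO2-2, a sterol 4-methyl oxidase, had 13.45 to 13.61 in models 2 to 4 and 7.49 in model 1. NF-YB1, a subunit of the trimeric CCAAT-binding factor, had 11.06 to 11.99 in models 1, 3, 4 and 7 and 8.17 in model 8. Model 8 of NF-YB1 was highest on arrays of low correlation, with 10.36 on Col0 epidermis KCl replicate 2, 9.99 on Col0 cortex KNO3 replicate 1 and 9.43 on atscl26 cortex KNO3 replicate 1. TGA6, a bZIP factor of the salicylic acid response, had a model at 5.50 and another at 8.59. The specific share was 74.5% in UEV1D-4, 81.2% in SMO2-2, 78.8% in GRF6, 90.9% in TGA6 and 95.9% in NF-YB1. The part of the low signal of these models in the shares was not tested.

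PTI1-4, a kinase that acts downstream of the OXI1 kinase, had the largest model-specific SD, 1.06, without a model at the bottom of the range. Its models 1, 3, 4 and 5 had means of 12.24, 12.62, 10.05 and 10.22. The difference between models 4 and 5 ran from -3.29 to 4.49 over the 22 arrays, with an SD of 2.16 within groups, the highest of the 646 pairs. AT4G00560 (specific SD 0.941) had means of 12.01, 11.20 and 11.37 in models 1, 2 and 4 and 7.06 in model 3.

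The loci with the most models showed both patterns. nPAP, a nuclear poly(A) polymerase that adds the tail of messenger RNAs, has 8 models, with means of 12.07 to 13.06. Its models 3 and 10 differed by -0.39 to -0.03 (model 10 minus model 3) over the 22 arrays, with an SD of 0.113. SNG1, the sinapoyltransferase that makes sinapoylmalate, has 6 models of low level, at 6.54 to 8.40. GRP-3, a glycine-rich secreted protein that binds a wall-associated kinase, has 6 models at 6.26 to 7.88. Its models 4, 5 and 6 had level SDs of 1.15, 1.31 and 1.09, and its models 1, 2 and 3 had 0.545, 0.516 and 0.402. AT3G10915 has 6 models, of which 4 lay at 12.77 to 13.18 and models 1 and 5 at 7.90 and 8.29. AT5G47900 has 6 models at 6.03 to 8.22.

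Splicing factors that choose splice sites are themselves among the 90 loci. RS41 had model means of 13.33, 13.33, 13.43 and 13.49 when ordered by level and a model-specific SD of 0.191. Its average nitrate differences (KNO3 minus KCl) lay between -0.12 ± 0.21 and -0.0043 ± 0.20 and its genotype differences (atscl26 minus Col0) between 0.02 ± 0.21 and 0.13 ± 0.20. ATU2AF65A, the large subunit of U2AF, was looser, with means of 12.08, 10.18, 12.00 and 12.63 in models 1 to 4 and a specific share of 58.0%. Model 2 had 10.40, 5.75 and 10.18 in Col0 epidermis KCl and 11.30, 12.05 and 10.11 in Col0 epidermis KNO3. The value of 5.75 came from the array of lowest correlation. PAPS2, another poly(A) polymerase, had means of 10.89, 9.93, 10.90 and 10.90 in models 1 to 4 and a specific share of 52.7%.

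Beyond the 90 loci, the splicing machinery was read through 3 lists chosen with earlier results of these data known. None of the 33 models of 18 SR loci, 27 models of 15 loci of other splicing regulators and 4 models of 4 nonsense-mediated decay factors passed the threshold in any of the 3 average effects, in which 0% (nitrate and genotype) and 0.00317% (cell type) of all models were called. For the SR models the median difference was -0.11 for nitrate, 0.09 for genotype and 0.21 for cell type, against 0.02, -0.05 and -0.08 over all models. Of the 33 SR models, 24 were higher in epidermis than in cortex, but models of the same locus are not independent of each other. For the other regulators the medians were 0.01, 0.05 and 0.04, and for the decay factors 0.01, 0.17 and -0.28. The smallest adjusted p in these lists was 0.782.

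The levels of the 384 models were then compared between groups. In limma, all 31524 models were fitted over the 22 arrays with a mean for each group, and a call is an adjusted p under 0.05 by Benjamini-Hochberg over all models. Differences are given ± SE. No model of the 90 loci was called in the F test over the 8 groups, in the 3 average effects or in any of the 12 simple comparisons. Over all models 0% were called in the F test, in the average nitrate and genotype effects and in each simple comparison, and 0.00317% (1 model, of another locus) in the average cell type effect. At an unadjusted p under 0.05, the F test had 8 of the 384 models (2.08%, against 4.11% of all models). The average nitrate effect had 14 (3.65% against 2.33%), genotype 18 (4.69% against 4.84%) and cell type 15 (3.91% against 6.0%). The largest share among the simple comparisons was that of cell type in Col0 KNO3, with 48 models (12.5% against 7.85%), followed by genotype in cortex KNO3 with 36 (9.38% against 6.15%). Both use the 2 Col0 cortex KNO3 arrays, 1 of which has a low correlation. The 2 genotype by nitrate interactions, 1 in each cell type, called no model either.

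The median difference of the 384 models was -0.01 for nitrate, -0.02 for genotype and -0.12 for cell type, against 0.02, -0.05 and -0.08 over all models. All models of a locus had the same sign in 41 of the 90 loci for nitrate, 53 for genotype and 52 for cell type. The 95% interval of the average difference lay within 1 log2 unit of 0 for 225 models for nitrate, 179 for genotype and 198 for cell type. For those models a change of 1 log2 unit or more is outside the interval. The cell type interval is that between the labels, and some arrays had a marker score nearer the other cell type. For the other models these data do not tell whether a change of that size is present.

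**Figure D4:**
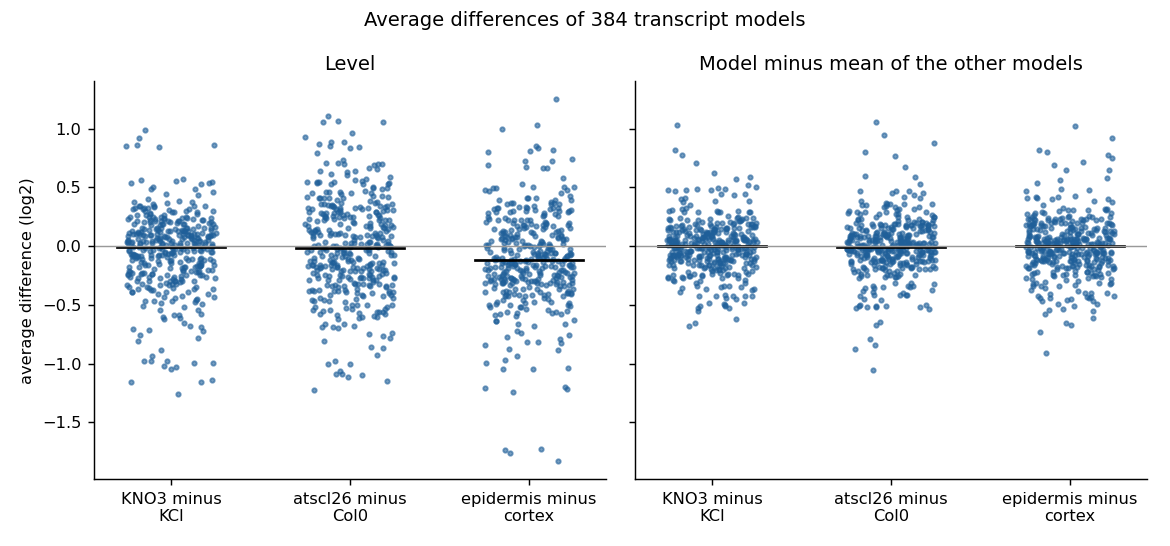
Average log2 differences of the 384 models for KNO3 minus KCl, atscl26 minus Col0 and epidermis minus cortex, as levels (left) and as the model minus the mean of the other models of its locus (right); points are models, spread sideways for sight, and black lines are medians. Levels scatter to -1.83 at most, and the differences between models of a locus stay within 1.06 of 0.

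In the average nitrate effect the smallest p among the 384 models belonged to MGT7, a magnesium transporter. Model 1 of MGT7 had a median of 9.60 in the 11 KNO3 arrays (range 7.95 to 10.47) and of 10.65 in the 11 KCl arrays (range 8.80 to 11.90). The treatments overlapped. The difference was -1.16 ± 0.38 in model 1, -1.15 ± 0.44 in model 2, -0.88 ± 0.48 in model 3 and -1.03 ± 0.36 in model 4 (adjusted p = 1.00 each). CA2, a beta carbonic anhydrase that turns carbon dioxide into bicarbonate, had the smallest p on the other side. Model 1 of CA2 had a median of 8.80 in KNO3 (range 6.78 to 10.42) and of 7.65 in KCl (range 6.59 to 8.55), and its 5 models differed by 0.85 to 0.99 (adjusted p = 1.00 each). The 4 models of AT5G06980 differed by -1.26 to -0.98. In MGT7, AT5G06980 and CA2 the models gave nearly the same difference, and the specific share was 7.26%, 8.64% and 6.38%.

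In the average genotype effect AT1G15200 and AT5G47900 led. Model 1 of AT1G15200 had a median of 12.64 in atscl26 (range 11.90 to 13.76) and of 12.31 in Col0 (range 10.86 to 13.02), a difference of 0.60 ± 0.25 (adjusted p = 0.806). Model 6 of AT5G47900 had a median of 7.08 in atscl26 (range 6.43 to 8.40) and of 7.55 in Col0 (range 6.94 to 11.09), a difference of -1.09 ± 0.38 (adjusted p = 0.806). Both overlapped between the genotypes.

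AT1G27385 was picked for its model 1, with the smallest p of the 384 models for genotype in cortex under KNO3 and under KCl. The levels of this model did not overlap between the genotypes in cortex. Model 1 had 8.85, 9.33 and 9.54 in atscl26 cortex KNO3, against 11.73 and 10.73 in Col0 cortex KNO3. It had 9.28, 8.77 and 9.07 in atscl26 cortex KCl, against 10.47, 11.56 and 10.33 in Col0 cortex KCl. By the titles, no atscl26 value reached a Col0 value under either treatment. The authors' Col0 cortex KNO3 average includes replicate 1 of atscl26 cortex KCl (9.28), which lies among the atscl26 cortex KNO3 values. The differences were -2.0 ± 0.54 under KNO3 (adjusted p = 0.599) and -1.75 ± 0.48 under KCl (adjusted p = 1.00). The other 3 models differed by -1.85 to -1.46 under KNO3 and by -1.27 to -0.85 under KCl. In epidermis the same model had 10.61, 9.36 and 10.91 in atscl26 KNO3 and 10.06, 8.93 and 8.72 in Col0 KNO3, where the groups overlapped. AT1G27385 also had the smallest p of the 384 models in the cell type comparison in Col0 KNO3 (model 3, -2.0 ± 0.50, adjusted p = 0.433) and in the limma F test (model 1, adjusted p = 1.00). It was thus lower in epidermis than in cortex in Col0 KNO3, and replicates 2 and 3 of atscl26 cortex KNO3 and replicate 3 of atscl26 cortex KCl have a marker score nearer epidermis. Without the arrays whose markers go against their label, the genotype difference of model 1 was -2.39 ± 0.77 under KNO3, with 1 atscl26 array left, and -1.76 ± 0.57 under KCl. Replicate 1 of both genotypes in cortex KNO3 has a low correlation, and without the arrays of low correlation the KNO3 difference was -1.30 ± 0.65. It then sets replicate 2 alone of Col0 against replicates 2 and 3 of atscl26, both with a marker score nearer epidermis. With array weights the KCl difference of AT1G27385 was called for model 1 (-1.78 ± 0.33, adjusted p = 0.0230) and model 3 (adjusted p = 0.0364), where 0.79% of all models and 1.56% of the 384 were called. The part of the markers and of the correlations in these differences was not tested beyond these values.

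Model 3 of AT1G15200 separated the genotypes in cortex under KNO3, with 13.32, 12.43 and 12.33 in atscl26 and 10.71 and 11.34 in Col0 (1.67 ± 0.46, adjusted p = 0.599). Its other 3 models differed by 1.60 to 2.38 in the same comparison. The arrays are those described for AT1G27385 under KNO3, and in Col0 KNO3 model 3 of AT1G15200 differed by 1.48 ± 0.46 between epidermis and cortex. Its genotype difference was 1.04 ± 0.45 without the arrays of low correlation, which leaves replicate 2 alone in Col0. It was 2.30 ± 0.62 without those whose markers go against their label, which leaves replicate 1 alone in atscl26. Model 5 of PIFI, a chloroplast protein tied to the NDH complex, had 5.89, 5.96 and 5.85 in atscl26 epidermis KNO3 and 6.78, 6.70 and 6.70 in Col0 epidermis KNO3 (-0.83 ± 0.37, adjusted p = 0.947). These values were close among replicates but near the bottom of the range. In Col0 cortex the same model of PIFI had 7.88 and 7.45 under KNO3 and 6.59, 6.15 and 5.81 under KCl (1.48 ± 0.41, adjusted p = 0.896). Model 2 of AT5G59950 had 11.67 and 11.11 in atscl26 epidermis KCl and 10.83, 9.19 and 9.72 in Col0 epidermis KCl (1.48 ± 0.51, adjusted p = 0.848).

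By cell type, the models of AT3G11930 differed by -1.83 to -1.73 between epidermis and cortex. Model 4 of AT3G11930 had a median of 9.11 in the 11 epidermis arrays (range 7.09 to 11.37) and of 10.98 in the 11 cortex arrays (range 7.61 to 13.77), and its adjusted p was 0.777. The smallest p was that of model 4 of AT5G47455, with a median of 8.53 in epidermis (range 7.34 to 9.84) and of 7.40 in cortex (range 6.41 to 9.36), a difference of 1.25 ± 0.35 (adjusted p = 0.777). Its other 3 models differed by 0.40 to 0.48 with SEs of 0.37 to 0.44. Without the 7 arrays whose markers go against their label, model 4 of AT5G47455 was called in this effect (1.87 ± 0.37, adjusted p = 0.0302) and so was model 2 of EDA39, a calmodulin-binding protein (AT4G33050, -1.68 ± 0.37, adjusted p = 0.0443). In that fit 736 of all models were called. Since the arrays were left out for their cell type markers, these calls are no independent support.

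Next, models were compared with the other models of their locus. On each array the mean of the locus was taken from each model, the result was fitted in limma, and the p-values of a locus were combined by the Simes method and adjusted over all 3675 loci with 2 or more models. Differences below are those of a model minus the mean of the other models of its locus. None of the 90 loci was called in the F test, the 3 average effects or the 12 simple comparisons, in each of which 0% of the 3675 loci were called. At an unadjusted p under 0.05, each of the 3 average effects and the F test had 2 of the 90 loci (2.22%), against 3.51% of the 3675 for nitrate, 3.89% for genotype, 6.59% for cell type and 3.67% for the F test. The 2 loci of the F test were PTI1-4 and AT2G20950, both with a limma adjusted p of 0.979. The locus mean removes the movement the models share, so these differences were more precise than levels. In the average effects of the 384 models, the 95% interval was a median of ±0.369 wide, against ±0.753 for levels. The 95% interval lay within 1 log2 unit of 0 for 333 models for nitrate, 341 for genotype and 334 for cell type.

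AT2G20950, a locus with no symbol in the reference table, had the smallest p of a model in these comparisons. Its models 1 to 4 had mean levels of 11.23, 9.16, 9.12 and 8.80. Minus the mean of the other 3 models, model 3 stood at -0.94, -0.87 and -0.99 in atscl26 epidermis KNO3 and at 0.40 and 0.20 in atscl26 epidermis KCl. The groups did not overlap. The difference was -1.23 ± 0.25 (limma adjusted p over loci = 1.00).

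The pair of atscl26 epidermis KCl arrays stood apart from all others. In Col0 epidermis model 3 of AT2G20950 stood at -0.87, -0.71 and -0.06 under KNO3 and at -0.60, -0.81 and -0.77 under KCl. In cortex it stood at -0.51, -0.97 and -0.60 in atscl26 KNO3, -0.46, -0.43 and -0.69 in atscl26 KCl, -1.47 and -0.64 in Col0 KNO3 and -0.74, -0.52 and -0.49 in Col0 KCl. The comparisons that use the pair therefore share it, as with genotype in epidermis KCl (1.02 ± 0.25, adjusted p = 0.902) and cell type in atscl26 KCl (0.82 ± 0.25, adjusted p = 1.00). In levels, the difference lay in more than 1 model. Model 1 had 11.44, 10.82 and 10.75 in atscl26 epidermis KNO3 and 9.80 and 10.27 in atscl26 epidermis KCl. Model 3 had 8.99, 8.07 and 7.94 in atscl26 epidermis KNO3 and 9.33 and 9.29 in atscl26 epidermis KCl, so the models differed in opposite directions. Model 3 of AT2G20950 was called in this comparison with array weights (adjusted p = 0.0496) and without the 4 arrays of low correlation (adjusted p = 0.0141), none of which belongs to the groups compared. Of the 5 arrays compared, replicates 2 and 3 of atscl26 epidermis KNO3 have a marker score nearer cortex, and their values (-0.87 and -0.99) lay beside that of replicate 1 (-0.94).

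PTI1-4 differed most by cell type in atscl26 under KCl. Model 1 minus the mean of the other 3 stood at 0.49 and 0.75 in atscl26 epidermis KCl and at 2.11, 1.72 and 1.86 in atscl26 cortex KCl. The groups did not overlap, and the difference was -1.27 ± 0.27 (limma adjusted p = 1.00). It stood at 1.08, 1.01 and 0.95 in Col0 cortex KCl, which gave a genotype difference in cortex KCl of 0.88 ± 0.24 (adjusted p = 1.00). Over all arrays, model 1 of PTI1-4 had a median of 1.10 in epidermis (range 0.49 to 1.65) and of 1.39 in cortex (range 0.79 to 2.21), and the average difference was -0.38 ± 0.13 (adjusted p = 0.690). Without the arrays whose markers go against their label, the difference by cell type in atscl26 KCl was -1.29 ± 0.25.

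**Figure D5:**
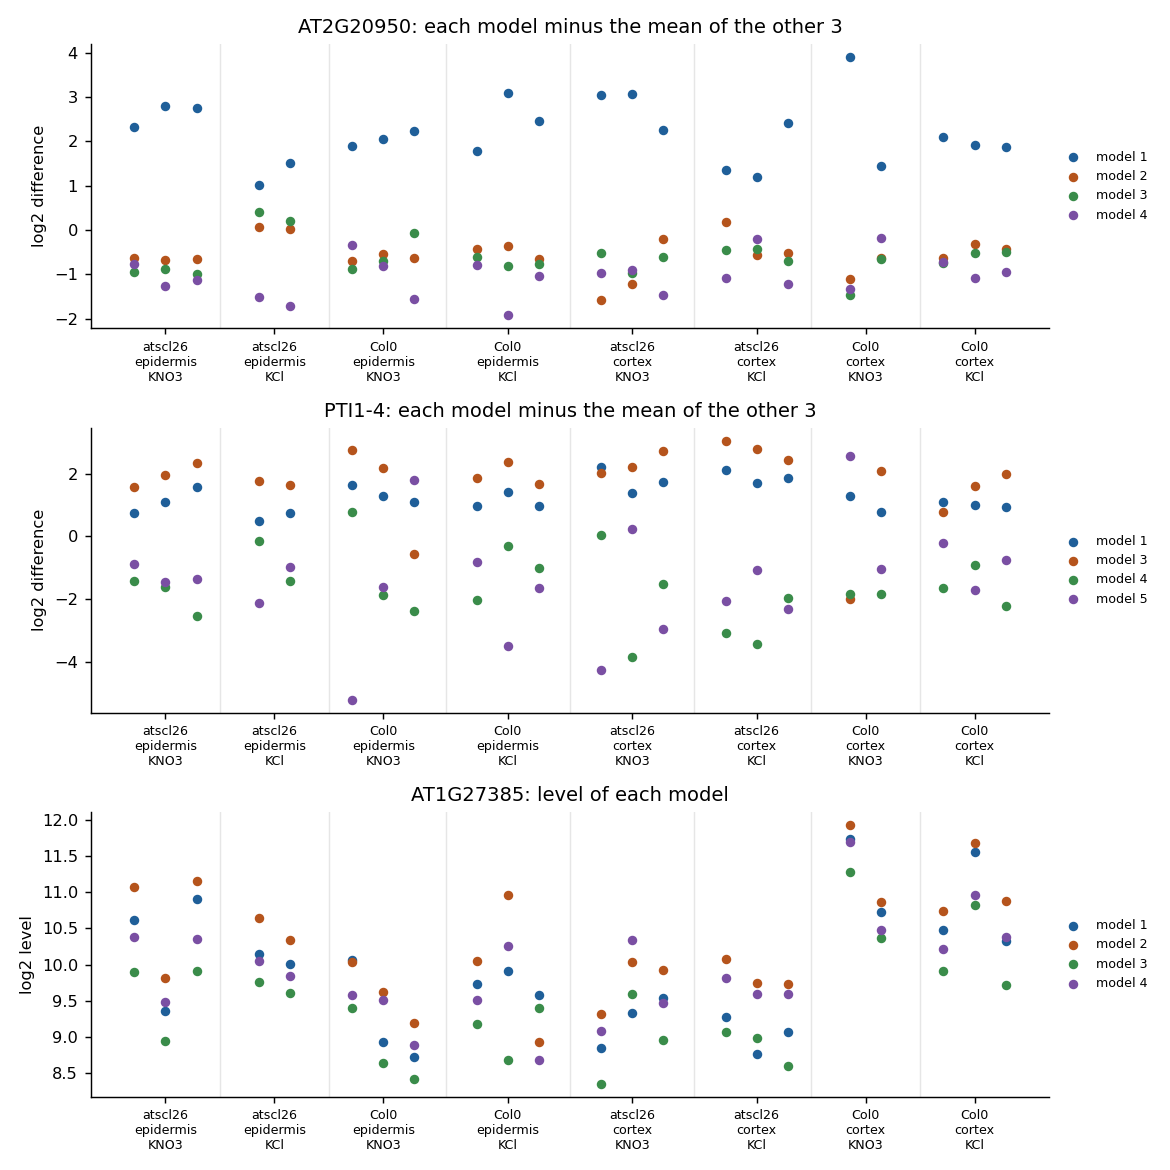
Values on each of the 22 arrays by group, a colour per model: each model minus the mean of the other 3 for AT2G20950 (top) and PTI1-4 (middle), and log2 levels for AT1G27385 (bottom). Model 3 of AT2G20950 lies above 0 on the 2 atscl26 epidermis KCl arrays alone, and all models of AT1G27385 lie lower in atscl26 cortex than in Col0 cortex under KNO3.

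In the average effects the leading model differences were small or rested on scattered arrays. Model 4 of AT4G13100 minus the others had a median of 0.94 in epidermis (range 0.68 to 1.29) and of 1.21 in cortex (range 1.00 to 1.32), a difference of -0.25 ± 0.08 (adjusted p = 0.690). Model 1 of MHK, a kinase named for male germ cells, had a median of 0.42 in epidermis (range 0.09 to 0.83) and of 0.23 in cortex (range -0.09 to 0.42), a difference of 0.25 ± 0.09 (adjusted p = 0.757). Both differences are smaller than the range within each cell type. Model 2 of AT5G47900 had a median of -0.83 in atscl26 (range -2.18 to 1.25) and of -1.25 in Col0 (range -4.07 to -0.39), a difference of 1.06 ± 0.34 (adjusted p = 0.902). Model 3 of UPS3, a ureide permease, had a median of 0.28 in atscl26 (range -1.27 to 1.43) and of 0.93 in Col0 (range 0.32 to 2.04), a difference of -0.84 ± 0.29 (adjusted p = 0.902). The genotypes overlapped in both.

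In several leading differences of simple comparisons replicate 1 of Col0 cortex KNO3, which has a low correlation with the others, lay farthest from the compared group. Model 8 of nPAP minus the other 7 models stood at -2.18 on that array and between -0.47 and 0.06 on the 21 others. This gave a genotype difference in cortex KNO3 of 1.08 ± 0.32 (adjusted p = 0.615), which was 0.05 ± 0.12 without the arrays of low correlation. Model 1 of AT3G56130 stood at -2.32 on that array and at -0.89 on replicate 2, against -0.25, -0.45 and -0.46 in Col0 cortex KCl (-1.22 ± 0.31, adjusted p = 0.919). Model 1 of AT5G62760 stood at 1.09 on it and at -2.58 on replicate 2, against -3.88, -3.72 and -3.76 in atscl26 cortex KNO3 (-3.04 ± 0.95 for atscl26 minus Col0, adjusted p = 0.540). Model 3 of AT5G25560 stood at 0.75 on it and at -0.38 on replicate 2, against -0.79, -0.77 and -1.32 in Col0 epidermis KNO3 (-1.14 ± 0.32, adjusted p = 0.455). In the last 3 loci replicate 2 lay on the same side of the compared group as replicate 1. Without the arrays of low correlation the differences were -0.51 ± 0.20 for AT3G56130, -1.16 ± 0.99 for AT5G62760 and -0.39 ± 0.28 for AT5G25560. In these values, and in that of nPAP, replicate 2 is the only Col0 cortex KNO3 array left.

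GOX1, the glycolate oxidase of photorespiration, has 5 models with a model-specific SD of 0.815. Model 4 of GOX1 minus the others stood at 0.47, -0.94 and -0.14 in Col0 epidermis KCl and at 0.97, 1.18 and 1.35 in Col0 cortex KCl. The groups did not overlap (-1.37 ± 0.41, adjusted p = 0.939). Replicates 1 and 2 of Col0 epidermis KCl have a marker score nearer cortex, and the lowest value is that of replicate 2, of low correlation. The difference was -1.0 ± 0.37 without the arrays of low correlation and -1.31 ± 0.50 without those whose markers go against their label. The latter rests on replicate 3 alone in Col0 epidermis KCl. Model 3 of CA2 stood at 0.28, -0.10 and 0.31 in atscl26 epidermis KNO3 and at -0.73, -0.50 and -0.19 in atscl26 cortex KNO3 (0.64 ± 0.19, adjusted p = 0.999). Of these 6 arrays, 4 have a marker score nearer the other cell type and 1 has a low correlation.

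Of the 90 loci, 51 have a symbol, and most of these were sorted by role after their values were seen, so the groups carry no test. The 5 loci of photosynthesis and photorespiration (CA2, GOX1, LHCA1, PIFI and PnsB4) have 23 models with means of 6.04 to 9.43. Of the 23 models, 21 were higher in KNO3 than in KCl (median 0.24), 5 were higher in atscl26 than in Col0 (median -0.56) and 4 were higher in epidermis than in cortex (median -0.30). The 24 models of 5 loci of RNA processing and translation (RS41, ATU2AF65A, nPAP, PAPS2 and EIF4A1) had means of 9.93 to 14.48, and 21 of them were higher in atscl26 (median 0.24). Over all models the medians were 0.02 for nitrate, -0.05 for genotype and -0.08 for cell type. None of these models was called, and models of 1 locus are not independent of each other.

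The 8 transcription regulators have 35 models, of which 23 were higher in atscl26 than in Col0 (median 0.25). FLC, the repressor of flowering, had model means of 7.83, 7.75, 6.01 and 8.56. Model 4 of FLC had its highest levels, 10.10, 10.04 and 9.79, on 3 arrays of low correlation (replicate 1 of Col0 cortex KNO3, replicate 1 of atscl26 cortex KNO3 and replicate 2 of Col0 epidermis KCl). Its average differences were 0.15 ± 0.32 for nitrate, -0.08 ± 0.32 for genotype and -0.32 ± 0.32 for cell type. MAF1, a relative of FLC that also delays flowering, was picked out after its values were seen. Its models 3, 4 and 5 had means of 9.66 to 10.48 and differed by -0.08 to 0.23 between cell types. Its model 2 had a mean of 7.60, with a median of 8.23 in epidermis (range 6.48 to 8.56) and of 7.35 in cortex (range 6.71 to 7.61), a difference of 0.67 ± 0.25 (adjusted p = 0.782).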

How the data were processed

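The deposited values are log2 expression values, 1 per transcript model and array, made with RMA per the submitters' processing notes, whose settings the labels do not give. The submitters dropped 2 of 24 arrays for low quality, by their own account. Group averages on the log2 scale, deposited as another table by the authors, were set against the group means and used in no test. No value column was left unused. Locus names came from a TAIR10.1 gene table, which held all 90 loci.

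The log2 values were used as deposited. Models of 1 mean per group were fitted over the 22 arrays with limma 3.58.1 in R 4.3.3 (14 residual degrees of freedom, 17.7 in all after eBayes for levels and 15.9 within loci). Contrasts were the average effect of each factor and 12 simple comparisons. Levels were adjusted by Benjamini-Hochberg over 31524 models. For the differences between models, the mean of a locus was subtracted on each array in 3675 loci with 8056 models, and the p-values of a locus were combined by Simes. A difference from the other models is that deviation times k/(k-1) for k models. The threshold was an adjusted p of 0.05. The titles call the arrays biological replicates, and p-values measure the spread between them; the number of arrays limits the precision. Simple comparisons had median standard errors of 0.688 to 0.769 for levels and of 0.288 to 0.322 for the deviation from the locus mean.

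The 90 loci and all lists were chosen with earlier results of these data known. Named loci are those with the most models, the largest and smallest model-specific SD and the smallest within-locus F p. Those with the smallest p in each comparison and direction and members of the splicing lists are also named. Others are named as picked after their values were seen or as examples of level or role. Models picked for a small p tend to have groups that do not overlap, so a lack of overlap is no separate support. Same-numbered replicates did not deviate together as a set, although single pairs of arrays did. The median correlation of their deviations from the group means was -0.027 for replicate 1 (range over pairs -0.516 to 0.353). It was 0.000 for replicate 2 (-0.576 to 0.35) and -0.016 for replicate 3 (-0.359 to 0.331). Alternatives were quantile normalization, a filter on dim models, another variance prior, array weights, a replicate block, deviations from the locus median, diffSplice, leaving out each array and, added after the data were seen, leaving out 3 sets of arrays.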

Additional observations from a re-analysis of the deposited data

How the results depend on the processing

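The number of calls among the 90 loci and their 384 models was 0 in the F test, the 3 average effects and the 12 simple comparisons, for levels and within loci. It was also 0 under quantile normalization, without the dimmest 25% of models and with an intensity trend and robust prior. The same held with deviations from the locus median and with limma's diffSplice (its F test over the 8 groups was not run). The number was 0 as well without the 3 arrays on which the titles and the authors' averages differ. These are replicate 2 of Col0 epidermis KCl, replicate 1 of atscl26 epidermis KNO3 and replicate 1 of atscl26 cortex KCl. With the replicate block the number was 0 in each result, as without it. With limma's array weights, 31 models (8.07%) were called in the F test for levels, beside 2488 of all models (7.89%). Among the 90 loci, the 12 simple comparisons made 59 calls for levels and 1 within loci. The call within loci was AT2G20950 for nitrate in atscl26 epidermis, the only 1 of the 3675 loci called in that comparison. Of the 3675, 3 were called for genotype in cortex KCl and 1 for cell type in atscl26 KNO3, none of them among the 90. Of the 59, 44 belong to cell type in Col0 KCl, in which 3486 of all models were called (11.5% of the 384 against 11.1% of all). The others are 6 for genotype in cortex KCl (249 of all models), 5 for nitrate in atscl26 cortex (963), 3 for nitrate in Col0 epidermis (519) and 1 for cell type in atscl26 KNO3 (67). Without the 4 arrays of low correlation, Col0 cortex KNO3 keeps 1 array, which is assumed to vary like the other groups. In levels, model 3 of PnsB4 then differed by -2.04 for genotype in cortex KNO3 and by -1.91 for cell type in Col0 KNO3. Both differences rest on that 1 array. Within loci, AT2G20950 was called for nitrate in atscl26 epidermis, 1 of 2 loci called among the 3675 in that comparison. Loci outside the 90 were called in other simple comparisons. Without the 7 arrays whose markers go against their label, 2 models (0.521%) were called for levels in the average cell type effect, beside 736 of all models (2.33%), and 11 calls were made within loci in the simple comparisons. These 11 concern BGLU11, AT1G67950, PIFI, CRU3 and AT5G47900 and rest on 1 remaining atscl26 cortex KNO3 array of low correlation. They are 4 of the 90 loci for nitrate in atscl26 cortex (167 of the 3675), 3 for genotype in cortex KNO3 (111) and 4 for cell type in atscl26 KNO3 (93). Leaving out each array in turn gave 0 calls in each of the 3 average effects for levels. In the others the counts ranged over the 22 arrays from 0 to 2 in the F test and 0 to 48 in the simple comparisons for levels, and within loci from 0 to 2 in the F test, 0 to 4 for nitrate, 0 to 1 for genotype, 0 to 2 for cell type and 0 to 31 in the simple comparisons. Every count above 0 came from leaving out replicate 2 of Col0 cortex KNO3, which leaves that group with its array of low correlation alone. Without that replicate 884 of all models were called for nitrate in Col0 cortex (18 of the 384), 660 for genotype in cortex KNO3 (12) and 827 for cell type in Col0 KNO3 (18), and within loci 190, 225 and 261 of the 3675 (8, 11 and 12 of the 90). Without it, models and loci outside the 90 were also called in the F test and in the 3 average effects, for levels and within loci. The causes of these shifts were not tested beyond the arrays named. Median standard errors of 0.365 for levels and 0.153 within loci limit what the average effects can show.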
